A study of Caenorhabditis elegans with 2 samples.

Results

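Mediator, TFIID and RNA polymerase II are the large complexes that start transcription of protein-coding genes. Their genes were taken here by name, as every protein-coding gene of Caenorhabditis elegans named mdt- (Mediator), taf- (TFIID) or rpb- (RNA polymerase II), which gave 48 of 19973 protein-coding genes on the nuclear chromosomes, namely 20, 17 and 11. The genes were examined for binding of NHR-237, a nuclear hormone receptor, by ChIP-seq in whole L1 larvae of both sexes. The labels name nhr-237 as the antibody target, and whether the antibody was raised against the receptor or its eGFP tag is not settled here. All animals were of strain OP228, which is mutant in unc-119 (allele ed3) and carries the integrated transgene wgIs228 with the eGFP-tagged factor. There was 1 group of 2 biological replicates and a control named in the labels that was not analysed here, so no test between groups was possible, and each count below is set beside the share of all protein-coding genes. The name rule leaves out subunits known under other names, such as the largest polymerase subunit gene ama-1 and the TBP gene tbp-1, which are given separately.

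RNA polymerase II reads the gene, TFIID recognises the core promoter through TBP and its associated factors (TAFs), and Mediator carries signals from DNA-bound factors to the polymerase. Several TAFs meet in pairs through histone-like folds, among them TAF4 with TAF12, TAF6 with TAF9 and TAF11 with TAF13. RPB3 and RPB11 also form a pair, on which the polymerase core is assembled. Mediator is known to be contacted directly by nuclear receptors, and in the worm its subunit MDT-15 works with several of them in fat metabolism. In C. elegans many neighbouring genes on the same strand are transcribed together as operons, and many transcripts lose their own 5′ end by trans-splicing, so that an annotated start may lie downstream of the place where transcription began.

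The measurements were peak lists on ce11. Each region has a summit and a signal value, a score of the authors' peak caller with no stated scale, which can be ranked only within its own list (rank 1 is the highest signal). There were 21745 regions for replicate 1, 25720 for replicate 2 and 7699 for the pooled data, of which the authors kept 970 by their irreproducible discovery rate (IDR), a measure of how well replicates rank a region alike. These 970 were the pooled regions of highest signal, so a region has the same rank in both of these lists. The promoter window began 1000 bp before an annotated transcript start and ended 200 bp after it, for any transcript of a gene. The number of reads is unknown. Since whole larvae were used, strong binding in few cells and weak binding in many cannot be told apart.

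Promoters of 9 of the 48 genes held an IDR summit (18.75%), against 4.66% of all protein-coding genes. The 9 were mdt-6, mdt-8, mdt-19 and mdt-26 (4 of 20 Mediator genes, 20%), taf-4, taf-11.3 and taf-12 (3 of 17 TFIID genes, 17.6%) and rpb-3 and rpb-11 (2 of 11 polymerase genes, 18.2%). The shares of the 3 complexes lay close together in this list with this window. They spread out in the pooled list, where summits were found at 8 Mediator (40%), 5 TFIID (29.4%) and 6 polymerase genes (54.5%). That is 19 of 48 (39.6%), against 18.4% of all genes. The pooled list also includes weak regions, with −log10 q down to 0.0177, so a pooled summit need not pass a q-value of 0.05. Among the members counted, −log10 q was 0.0477 at mdt-17, 0.144 at taf-5 and 0.177 at rpb-6. The counts rested in part on summits that lay nearer to the start of another gene. With each summit given only to the gene of the nearest start, 4 of 48 were left (8.33%, against 3.30% of all genes), and with a promoter of 500 bp upstream to 100 bp downstream 5 of 48 (10.4%, against 3.78%). By complex, nearest starts left 1 Mediator (5%), 2 TFIID (11.8%) and 1 polymerase gene (9.09%). The narrower promoter left 1 (5%), 2 (11.8%) and 2 (18.2%) in that order, so the shares were less close there.

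**Figure D1:**
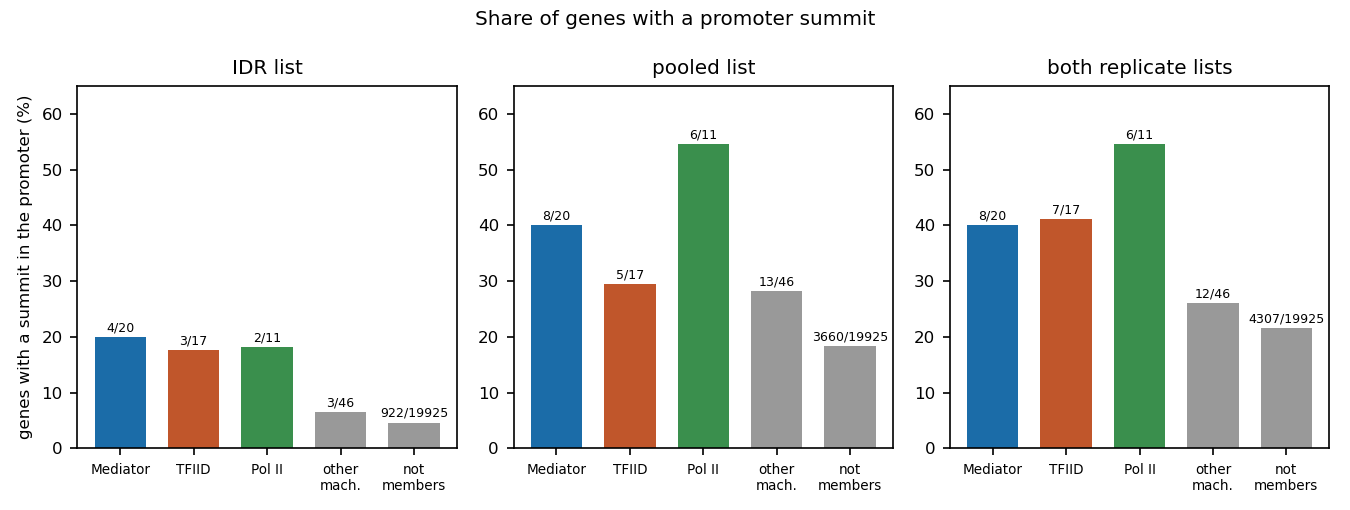
Share of genes (vertical axis, percent) with a summit in the promoter in the IDR list, the pooled list and both replicate lists, for the 3 complexes, for 46 other transcription machinery genes (other mach.) and for the 19925 protein-coding genes that are not members, among which the 46 are counted too. Numbers above the bars are genes with a summit over genes in all. With the window of 1000 bp upstream to 200 bp downstream, the IDR share is 17.6 to 20% for each complex, against 4.63% for the genes that are not members.

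The replicate lists were also taken one by one. In the replicate 1 list 26 of 48 promoters held a summit (54.2%, against 35.0% of all genes), and in the replicate 2 list 30 of 48 (62.5%, against 39.4%). Both lists held one at 21 of 48 (43.75%, against 21.7%). These lists are not thresholded and include many weak regions. With a q-value under 0.05 in both replicates there were 10 of 48 (20.8%, against 3.95%), which are the same 9 genes and rpb-8. Among the 970 strongest regions of replicate 1, 9 of 48 members had a summit (18.75%, against 4.47%), and among the 970 strongest of replicate 2 again 9 of 48 (18.75%, against 4.63%). Of the 9 genes of the IDR list, 8 were kept in each case. With replicate 1 alone, mdt-6 was lost and rpb-7 gained, and with replicate 2 alone, rpb-3 was lost and taf-6.2 gained. Thus the polymerase count was 3 in the strongest regions of replicate 1 and 1 in those of replicate 2.

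The members' IDR regions were of middling strength. Their signal ran from 60.2 to 113 with a median of 72.5, and their ranks from 195 to 754 with a median of 510. For the 922 genes that are no members and had an IDR summit, the median signal was 76.9 and the median rank 447, with a highest signal of 419.

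**Figure D2:**
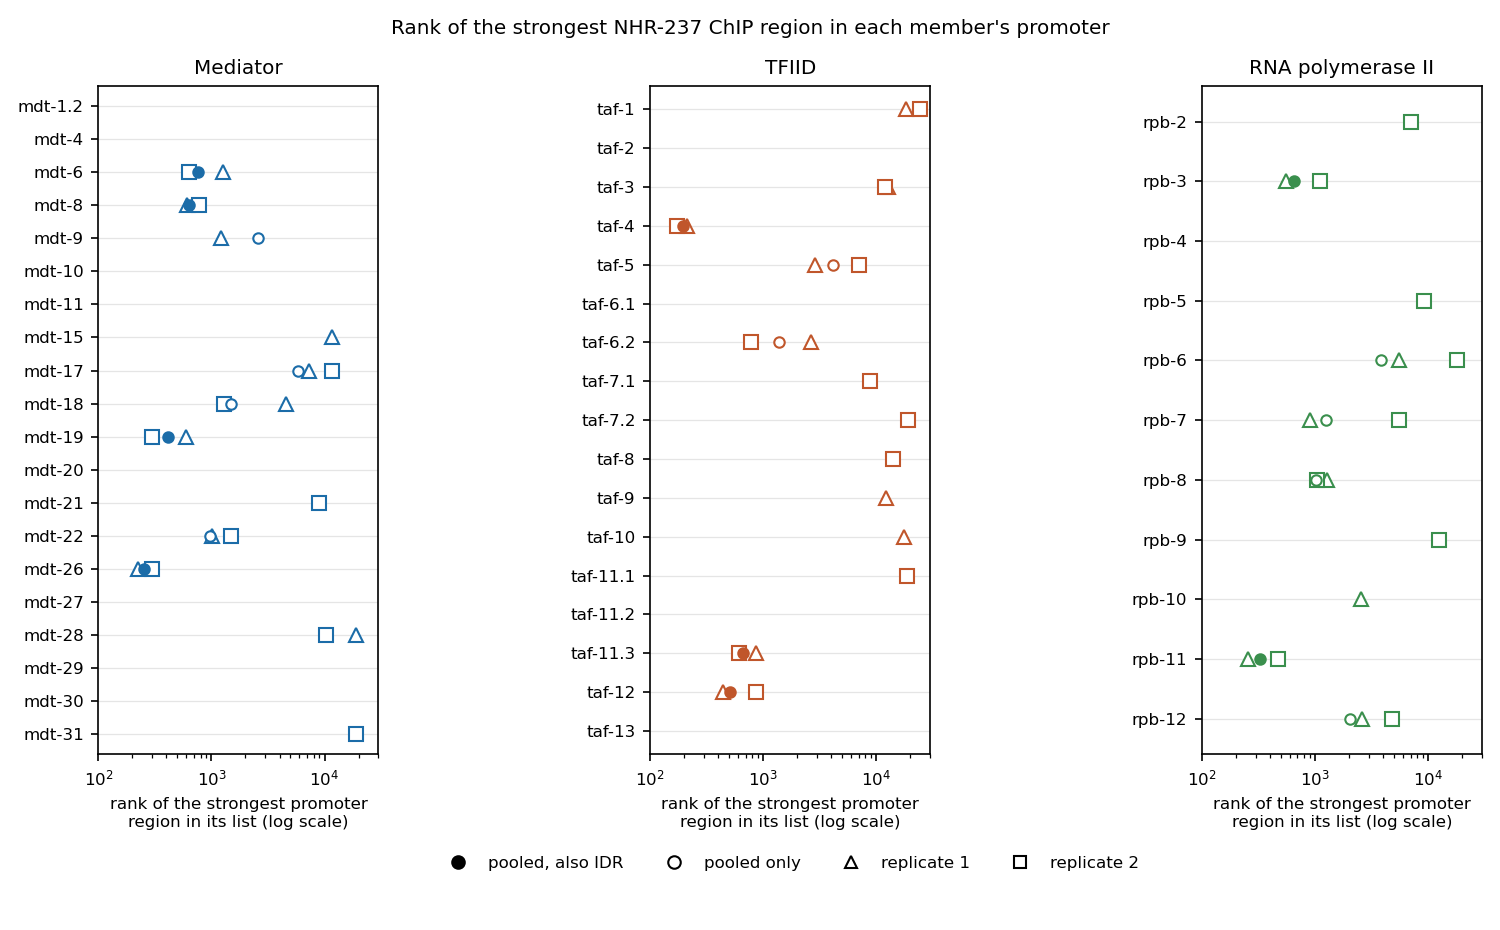
Rank of the strongest region with its summit in the promoter (horizontal log axis; rank 1 is the highest signal of a list) for each of the 48 genes, one row per gene. Filled circles are pooled regions that are also in the IDR list, open circles pooled regions only, triangles replicate 1 and squares replicate 2. The genes taf-4 and mdt-26 lie farthest to the left. Rows with no symbol are the 13 genes with no summit in any list, which held for 9436 of the 19925 genes that are no members.

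The bases at the summits are shown for 6 of the 9 regions, 50 bp to each side of the IDR summit and along the strand of the member gene, to let their makeup be read beside the values. For mdt-26 only the part before the annotated start is given, and the mdt-6 window lies wholly in annotated exons and is not printed. Those of taf-4 and rpb-3 are not printed. Capitals mark the TATA box letters TATAAA, the repeat unit GAGAGA and also the short word CGCG, each on either strand. They are, from the RefSeq sequence of WBcel235 (the assembly of ce11), mdt-8 at chrII:11534727-11534827 (minus strand), mdt-19 at chrIII:2597225-2597325 (plus), mdt-26 at chrII:5661136-5661180 (plus), taf-11.3 at chrIII:10505361-10505461 (minus), taf-12 at chrIII:11870129-11870229 (minus) and rpb-11 at chrII:14059910-14060010 (plus).
mdt-8: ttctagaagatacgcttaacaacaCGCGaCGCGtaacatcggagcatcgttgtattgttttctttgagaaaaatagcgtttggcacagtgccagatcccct
mdt-19: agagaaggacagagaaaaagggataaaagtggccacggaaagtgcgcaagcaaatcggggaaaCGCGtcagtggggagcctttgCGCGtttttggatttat
mdt-26: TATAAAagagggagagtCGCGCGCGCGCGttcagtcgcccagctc
taf-11.3: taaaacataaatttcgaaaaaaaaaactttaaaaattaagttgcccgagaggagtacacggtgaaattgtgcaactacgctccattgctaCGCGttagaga
taf-12: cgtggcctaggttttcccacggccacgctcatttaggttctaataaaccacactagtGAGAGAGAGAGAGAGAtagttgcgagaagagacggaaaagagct
rpb-11: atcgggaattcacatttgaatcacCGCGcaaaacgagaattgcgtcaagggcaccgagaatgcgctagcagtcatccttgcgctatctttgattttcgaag

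Of 6 short motifs searched on both strands in these 101 bp windows, none was common to the 9 summits. The nuclear receptor core sites AGGTCA and AAGTCA were in 0 of 9 windows, against 2.47% and 2.78% of all 970 IDR windows. CACGTG was likewise in 0 of 9 (3.61% of IDR windows). TATAAA was at mdt-26 alone (4.12% of IDR windows), GAGAGA at taf-12 alone, where it forms the repeated run above (31.5%), and TTTCAG at rpb-3 alone (5.57%). The TATAAA of mdt-26 lay 45 to 40 bp before the first of its annotated starts and 58 to 53 bp before the other. Away from the summit, mdt-6 also had a TATAAA 40 to 35 bp before its own start. The bases before the starts of taf-4 and rpb-3 were not searched in this way. CGCG, which was added after the windows had been seen, was in 7 of 9, against 43.4% of IDR and 16.95% of pooled windows. The windows of taf-12 and rpb-3 lacked it. The GC content of the members' windows had a median of 48.5%, against 47.5% for all IDR windows. Such matches describe the letters only.

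Mediator is built of a head module, which binds the polymerase, a middle, a tail and a separable kinase module. IDR summits were at a minority of its genes, and no count by module was made. The strongest was at mdt-26 (WBGene00016115). Its human counterpart MED26 links Mediator to elongation factors. The signal was 102 in the pooled list (rank 253), 60.2 in replicate 1 (rank 225) and 43.1 in replicate 2 (rank 299). It was thus high in both replicates. The region lay on chromosome II from 5661004 to 5661367, with its summit 5 bp inside the untranslated first exon of mdt-26 and 400 bp upstream of ift-43, a gene of ciliary transport on the other strand.

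The next Mediator gene was mdt-19 (WBGene00007019), which encodes the counterpart of MED19 in the middle module. Its signal was 79.8 in the pooled list (rank 413), 38.3 in replicate 1 (rank 596) and 43.2 in replicate 2 (rank 298). The summit, on chromosome III at 2597275 in a region from 2597093 to 2597456, lay between genes, 778 bp upstream of mdt-19. It was nearer to the oppositely directed apb-1, a clathrin adaptor gene, from which it was 241 bp away. It was lost from mdt-19 with the narrower window and when each summit went to the nearest gene.

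The head module genes mdt-8 (WBGene00007013) and mdt-6 (WBGene00003164) had summits close to the far end of the promoter window. At mdt-8 the signal was 65.3 in the pooled list (rank 636), 37.8 in replicate 1 (rank 608) and 29.0 in replicate 2 (rank 776). Its region on chromosome II from 11534595 to 11534958 had its summit 961 bp upstream of mdt-8, but 298 bp upstream of Y62F5A.12. That gene lies before mdt-8 on the same strand, with 109 bp between them. At mdt-6 the signal was 60.2 in the pooled list (rank 754), 26.2 in replicate 1 (rank 1257) and 31.2 in replicate 2 (rank 638). Its region on chromosome V from 7060400 to 7060763 had its summit 958 bp upstream of mdt-6, in an untranslated exon of Y57E12AL.1, 30 bp after the nearest of its annotated transcript starts. It was also 112 bp upstream of Y57E12AL.6, which ends 38 bp before mdt-6 on the same strand. Both summits thus lay beyond the same-strand gene before the member rather than next to the member itself.

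Below the IDR threshold, 4 more Mediator promoters held a pooled summit. The head gene mdt-22 missed the list by 4 ranks. It ranked 974 with a pooled signal of 52.4, where the last IDR region had 52.6, and the replicates gave 29.1 (rank 1014) and 22.4 (rank 1495). The summit was 54 bp upstream of mdt-22, in an intron of the mitochondrial protease gene clpp-1 on the other strand. The head gene mdt-18 had a pooled signal of 42.3 (rank 1491), with 15.97 in replicate 1 (rank 4600) and 23.5 in replicate 2 (rank 1292). The middle gene mdt-9 had 33.5 (rank 2569), with 26.5 in replicate 1 (rank 1222) and no promoter summit in replicate 2. That pooled summit was 110 bp upstream of mdt-9 and 54 bp upstream of Y62E10A.23. The head gene mdt-17 had 25.4 (rank 5833), with 13.8 in replicate 1 (rank 7312) and 12.2 in replicate 2 (rank 11760). Apart from mdt-22, these were uneven or weak in the replicates.

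The other 12 Mediator genes had no pooled summit. Among them was mdt-15, whose product works with several nuclear receptors in fat metabolism. The promoter of mdt-15 held a single summit, in replicate 1, with a signal of 11.9 (rank 11751) and 913 bp upstream, and the nearest IDR summit was 22260 bp away. Weak summits were also found at mdt-21 (replicate 2, rank 8916), mdt-28 (replicate 1 rank 19057, replicate 2 rank 10331) and mdt-31 (replicate 2, rank 18894). No list held one at mdt-1.2, mdt-4, mdt-10, mdt-11, mdt-20, mdt-27, mdt-29 or mdt-30.

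In TFIID, the strongest region of all 48 genes was that of taf-4 (WBGene00006385), whose product is broadly needed for transcription in the worm embryo. The signal was 113 in the pooled list (rank 195), 61.8 in replicate 1 (rank 212) and 53.4 in replicate 2 (rank 172). The region on chromosome I from 382302 to 382665 had its summit between genes, 342 bp upstream of taf-4 and 582 bp upstream of the oppositely directed pqn-59. The next was taf-12 (WBGene00006396), named after the partner of TAF4, with 72.5 in the pooled list (rank 510), 45.0 in replicate 1 (rank 439) and 27.6 in replicate 2 (rank 864). That summit, on chromosome III at 11870179 in a region from 11869997 to 11870360, was 898 bp upstream of taf-12. It was the only one of the 9 that no other protein-coding gene's promoter held.

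The third was taf-11.3 (WBGene00006395), one of 3 genes named after TAF11. Its signal was 64.0 in the pooled list (rank 663), 31.4 in replicate 1 (rank 871) and 31.7 in replicate 2 (rank 609). The region, on chromosome III from 10505229 to 10505592, had its summit 161 bp upstream of taf-11.3 and 69 bp upstream of urm-1, a ubiquitin-related modifier gene on the other strand. The other genes of that name differed in these lists. Of these, taf-11.1 had a summit in replicate 2 alone (signal 10.2, rank 18599) and taf-11.2 in none. Among the TAF6 genes, taf-6.2 had a pooled signal of 44.1 (rank 1367), with 19.1 in replicate 1 (rank 2650) and 29.0 in replicate 2 (rank 777), while taf-6.1 had no summit. The TAF7 genes had one in replicate 2 alone, at rank 8872 for taf-7.1 and 18890 for taf-7.2.

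The remaining TFIID genes were weak or empty. The promoter of taf-5 held a pooled summit in an intron of the gene, with a signal of 28.2 (rank 4179), 18.6 in replicate 1 (rank 2863) and 14.4 in replicate 2 (rank 7012). Both replicates had summits at taf-1 (ranks 18338 and 24250 in replicates 1 and 2) and taf-3 (12657 and 12038), which encode the largest subunit and, in humans, a PHD finger subunit. Only 1 replicate had any at taf-8 (replicate 2, rank 14048), taf-9 (replicate 1, rank 12148) and taf-10 (replicate 1, rank 17641). None of the lists held a summit at taf-2 or taf-13. Of the other TAF pairs named above, taf-13 had no summit beside taf-11.3, and neither taf-6.2 nor taf-9 had an IDR summit.

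In RNA polymerase II, both IDR summits were at genes of the RPB3 and RPB11 pair. The rpb-11 region (WBGene00012187) had a signal of 92.3 in the pooled list (rank 325), 57.4 in replicate 1 (rank 257) and 35.5 in replicate 2 (rank 468). It lay on chromosome II from 14059778 to 14060141, with the summit 125 bp upstream of rpb-11. The upstream neighbour daf-5 was 7780 bp away, and the promoter of W01G7.4, on the same strand, also held the summit, 779 bp before its start. The rpb-3 region (WBGene00007971) had 64.5 in the pooled list (rank 657), 39.98 in replicate 1 (rank 554) and 25.1 in replicate 2 (rank 1098). It lay on chromosome I from 8728438 to 8728801, with the summit 144 bp upstream of rpb-3 and 133 bp upstream of the proteasome gene pas-4, which is read the other way. The summit also lay within the annotated noncoding RNA gene C36B1.16, the only such gene within 250 bp of any of the 9 summits.

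Of the 3 complexes, the polymerase genes had the highest share of pooled summits (6 of 11), but such small counts allow no contrast between the complexes. The name rule also leaves out ama-1, which had none, and 8 Mediator genes, of which 5 had one. Below the IDR threshold, the polymerase gene nearest to it was rpb-8, which encodes a subunit shared by all nuclear polymerases. Its signal was 51.2 (rank 1022), with 25.9 in replicate 1 (rank 1288) and 25.7 in replicate 2 (rank 1038), and its summit lay 77 bp upstream. For rpb-7, a gene of the stalk, the pooled signal was 46.2 (rank 1261), with 30.8 in replicate 1 (rank 907) and 15.3 in replicate 2 (rank 5590). Its summit lay 18 bp inside rpb-7, in coding sequence, and 15 bp before the start of Y54E10BR.2. The shared subunit genes rpb-12 and rpb-6 had pooled signals of 36.5 (rank 2043) and 28.9 (rank 3862). Their replicate ranks were 2618 and 4798 for rpb-12, and 5528 and 18148 for rpb-6, in replicates 1 and 2. Weak summits in 1 replicate alone were at rpb-10 (replicate 1, rank 2578), rpb-2 (replicate 2, rank 7075), rpb-5 (replicate 2, rank 9140) and rpb-9 (replicate 2, rank 12467). The catalytic subunit gene rpb-2 was thus without a region in the pooled list, and rpb-4 was the only polymerase gene without a summit in any list.

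**Figure D3:**
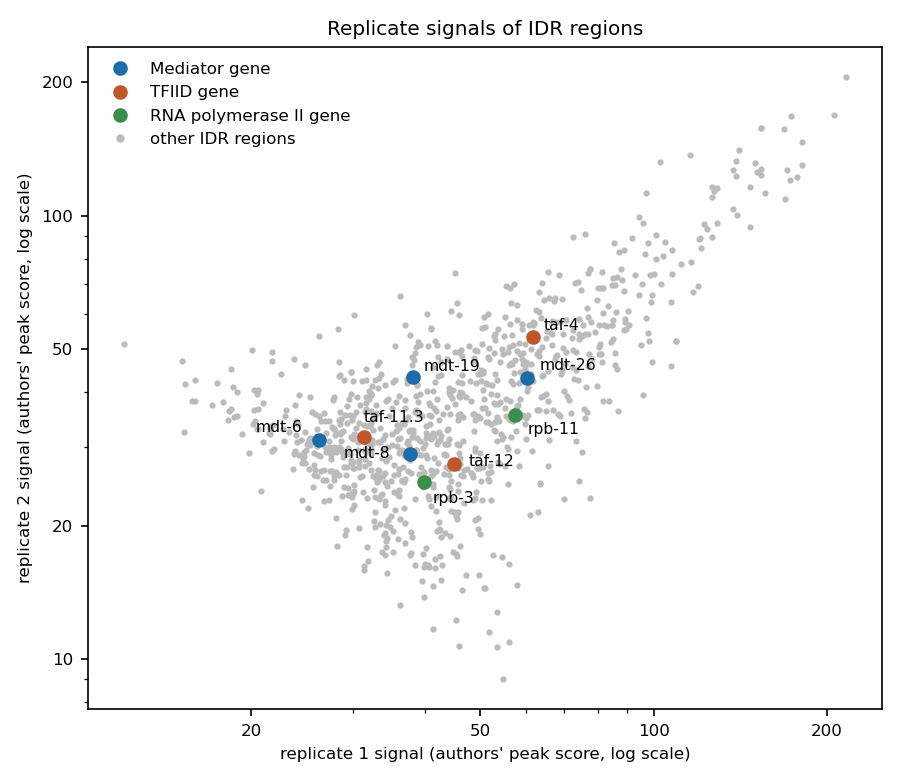
Signal in replicate 1 (horizontal) against replicate 2 (vertical), both the authors' peak score on log axes, for the IDR regions that overlap a region in both replicate lists. Coloured points are the regions with a summit in the promoter of the 9 named genes; taf-4 and mdt-26 are high in both replicates, while mdt-6 is lowest in replicate 1 (26.2) and rpb-3 lowest in replicate 2 (25.1) of the 9.

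The distance between the replicate summits was larger at the median member than at the median IDR region. By the strongest overlapping regions, their median distance was 49 bp, with 5 of 9 within 50 bp, against a median of 23 bp and 74.6% within 50 bp over the 966 IDR regions found in both replicates. With the regions whose summits lie in the promoter, they were 5 bp apart at rpb-11, 11 bp at rpb-3, 32 bp at taf-11.3, 33 bp at mdt-19, 41 bp at mdt-8, 49 bp at mdt-6, 54 bp at taf-12, 66 bp at mdt-26 and 80 bp at taf-4. All were less than the width of the IDR region, which was 364 bp at each of the 9. The strongest region of replicate 2 at mdt-8 (rank 658) had its summit outside the promoter window and 233 bp from that of replicate 1, so that the value above is from the region next in rank.

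Most summits at these genes were shared with a neighbour. Of the 9 IDR summits, 8 lay in the promoter of at least 1 further protein-coding gene, against 517 of the 922 genes with an IDR summit that are no members (56.1%). In 5 of 9 the start of another gene was nearer than that of the member, while over all protein-coding genes with an IDR summit this was so for 272 of 931. The member's own start was nearest at mdt-26, taf-4, taf-12 and rpb-11. The median distance from summit to member start was 342 bp, against 250 bp for the genes that are no members. The median was 868 bp for the Mediator genes, and 125 and 144 bp were the values of the polymerase genes. A summit between a pair of genes cannot be assigned to either of them from these lists.

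**Figure D4:**
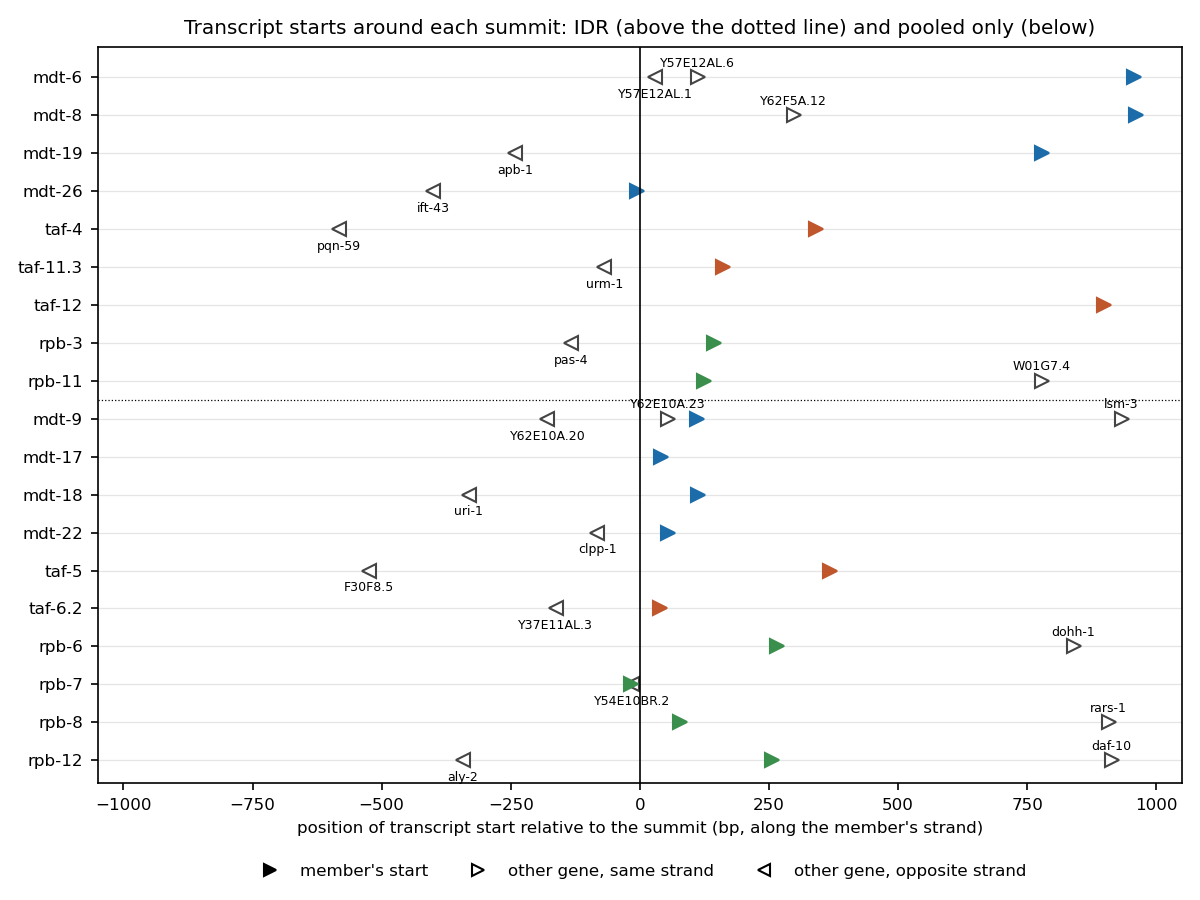
Position of transcript starts around the pooled summit (horizontal axis, bp from the summit along the member's strand) for the 9 genes with an IDR summit, above the dotted line, and the 10 with a pooled summit only, below it. Filled arrowheads are the member's nearest start and open ones other protein-coding genes whose promoter holds the same summit, pointing the way they are read; mdt-6, mdt-8, mdt-19 and taf-12 start 778 to 961 bp from their summits.

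The arrangement of neighbouring genes is given beside these counts, and its part in them was not tested. A same-strand gene ended within 500 bp before 18 of the 48 members (37.5%), with a median gap of 104.5 bp, against 17.6% of the genes that are no members. Such spacing is common in operons, but operon membership was not looked up. Of these 18, mdt-6 and mdt-8 had an IDR summit (11.1%), against 2.96% of non-members of that arrangement. In both it lay beyond the gene before them. Where the upstream neighbour was divergent and within 1000 bp, 4 of 9 had one (mdt-26, taf-4, taf-11.3 and rpb-3), against 410 of 3427 non-members of that arrangement. Where it was divergent and farther away, 2 of 5 had one (mdt-19 and rpb-11), against 4.08% of non-members. Close same-strand genes among the non-members had one in 2.96%. The 500 bp limit was chosen after values were seen, so a split made with it is a description only. No list held a summit at 13 of the 48 members, against 9436 of the 19925 genes that are no members, so a missing summit was not more common among members. Of these 13 members, 8 had a same-strand gene within that limit before them, against 10 of the other 35. For non-members the shares were 18.4% without and 16.9% with a summit. By chromosome, IDR summits were at 2 of 10 members on I, 3 of 11 on II, 3 of 12 on III and 1 of 6 on V. They were at 0 of 5 on IV and 0 of 4 on X. The shares of all genes were 6.32%, 4.26%, 7.88%, 2.88%, 4.72% and 3.48% in that order. With so few members, 0 on IV and X is near these shares and is no result about the members.

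Further genes of the transcription machinery, under other names, were looked at in the same way. They came from short lists chosen by name and are not all of the remaining machinery. Of 46 such genes 3 had an IDR summit (6.52%), which is near the 4.66% of all genes, and 13 a pooled summit (28.3%, against 18.4%). None of 8 Mediator genes under other names had an IDR summit, although 5 had a pooled one. These were dpy-22 (signal 46.2, rank 1260), sur-2 (43.6, rank 1399), let-19 (38.7, rank 1787), cic-1 (37.7, rank 1905) and sop-3 (34.1, rank 2446), the last of which was named after its value was seen. Among them dpy-22, let-19 and cic-1 belong to the kinase module. Counted with the members, Mediator had 4 IDR summits in 28 genes (14.3%). Neither ama-1 (replicate 1 rank 11508, replicate 2 rank 15721) nor tbp-1 had a pooled summit, and tbp-1 had none in any list, while the TBP-like gene tlf-1 had a weak one (23.6, rank 7567).

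Among 17 genes of general factors, 2 had an IDR summit (11.8%, against 4.66% of all genes) and 3 a pooled one (17.6%, against 18.4%). The IDR summits were at the TFIIA gene pqn-51 (signal 103, rank 249) and the TFIIH kinase gene cdk-7 (99.4, rank 268). The TFIIB gene ttb-1 had the other pooled one (41.2, rank 1565). The signal at pqn-51 was above that of all members but taf-4, and the signal at cdk-7 above that of all but taf-4 and mdt-26. Of 10 elongation genes, 1 had an IDR summit (10%, against 4.66%) and 3 a pooled one (30%, against 18.4%). The elongin B gene elb-1 had the IDR summit (58.5, rank 801), and emb-5 (34.9, rank 2287) and cdk-12 (27.2, rank 4725) had the other pooled ones. The 4 genes named rpoa- (RNA polymerase I) had 0 IDR summits and 1 pooled summit, at rpoa-1 (32.8, rank 2696). The 4 named rpc- (RNA polymerase III) had 0 of either, beside 4.66% and 18.4% of all genes. Subunits under other names, such as the shared rpb-8, are not in these 2 lists. Such small counts allow no contrast between the polymerases.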

How the data were processed

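Both samples are ChIP-seq of eGFP-NHR-237 in L1 larvae, with DNA of 150 to 350 bp per the labels. According to the deposited readme files, replicate regions were called on that replicate against a control, pooled regions on both replicates together, and the IDR regions were taken from these. The aligner, caller, their versions and the IDR cutoff were not given in the sources used here. Region strength is the signal, the deposited score of the authors' caller, and q-values were deposited on the −log10 scale. The 4 ce10 lists were not used here. The library depth is unknown.

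Genes came from Ensembl release 115 (WBcel235), bases from RefSeq. Positions count from 1. Summits were assigned to every promoter holding them with Python 3.11.15, and the assignment was checked on planted positions. Members and lists were chosen with earlier results of these data known. The 500 bp spacing and CGCG were chosen after values were seen. The symbols let-425, spt-6 and tfs-1 matched no protein-coding gene. Named are all members, the genes sharing their IDR summits, and up to 4 genes of highest pooled signal per other list. Of the genes sharing a summit of the pooled list alone, only some are named in the text. Counts of genes carry no interval, since genes are not replicates. Alternatives were other windows, starts, assignment and overlap rules, the 485 strongest IDR regions, and each replicate's 970 strongest regions.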

Additional observations from a re-analysis of the deposited data

How the results depend on the processing

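Of the 48 genes, 9 had an IDR summit, and the count was again 9 with a window of 2000 bp upstream to 500 bp downstream (6.10% of all genes), with the first base of the gene alone (4.35%) and with any overlap of at least 1 bp. It was 5 with 500 bp upstream to 100 bp downstream, 4 with nearest genes only and 4 in the 485 strongest IDR regions (2.55% of all genes). In these 3 settings the Mediator count was 1, 1 and 2 of 20 in place of 4 (5%, 5% and 10%). The shares of all genes were 3.78%, 3.30% and 2.55% in that order, so the first 2 Mediator shares lay near them. The TFIID count was 1 of 17 in the strongest regions in place of 3 (5.88%). The polymerase count was 1 of 11 with nearest genes and 1 in the strongest regions in place of 2 (9.09% each). Leaving out each replicate gave 9 and 9 members, 3 to 4 Mediator, 3 to 4 TFIID and 1 to 3 polymerase genes. The genes mdt-26, taf-4 and rpb-11 kept their summit in 8 of 8 alternatives, mdt-19, taf-11.3 and taf-12 in 6, mdt-8 and rpb-3 in 5 and mdt-6 in 4. No paired analysis was possible because there is 1 group. The lists analysed here hold no untagged or input sample, and signal that any ChIP may give at active promoters was not tested.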
